A study of Mus musculus with 2 samples.

Results

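The genes described are 10 members of the two-pore potassium channel family (Kcnk1, Kcnk2, Kcnk3, Kcnk4, Kcnk5, Kcnk6, Kcnk9, Kcnk10, Kcnk12 and Kcnk13), out of 55536 annotated genes. They were found by gene symbol in the transcript tables made without an alignment and joined to the gene tables by gene identifier. The rule that finds them uses symbols and no measured value. Total RNA was sequenced from adrenal glands of male B6CASTF1/J mice aged 4 days, which are F1 hybrids of C57BL/6J and CAST/EiJ, obtained from The Jackson Laboratory. There was 1 group of 2 libraries (replicates 1 and 2), with no treatment and no engineered allele. The labels number them as glands of different males, though 1 description repeats a number and the donor label is shared. No second condition was analysed, so levels and transcript shares were described within the gland, and the libraries were compared with each other. Nothing in the labels says that the animals came from separate litters, so the spread between the libraries may be in part technical. Parental alleles were not separated in the tables.

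Two-pore potassium channels are leak channels. Each subunit carries a pair of pore-forming loops, subunits assemble as dimers, and the channels let potassium leave the cell at rest and so hold the membrane potential negative. In the adrenal cortex the aldosterone-producing cells of the zona glomerulosa are known for a very negative resting potential carried by the acid-sensitive TASK channels. Angiotensin II and extracellular potassium depolarise these cells, calcium enters and aldosterone synthesis follows. Mice lacking Kcnk3 (TASK-1) or Kcnk9 (TASK-3) are known to have disturbed aldosterone control. In bovine zona fasciculata cells a TREK-1 current (Kcnk2) is inhibited by corticotropin and angiotensin II.

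The gene tables held 32231301 expected counts in replicate 1 and 30292851 in replicate 2, where 3 counts, the limit that a count of 0 allows, correspond to 0.0931 and 0.0990 CPM (the count scaled to library depth). Such floors, and all intervals below other than the deposited ones of transcripts, cover counting error only. The gland's own markers were abundant in both libraries. The chromaffin list (Th, Dbh, Pnmt, Chga and Chgb, markers of the catecholamine cells) summed to 2108.20 TPM (abundance per unit of transcript length, scaled to the library) in replicate 1 and 1903.82 TPM in replicate 2, and the zona fasciculata list (Cyp11b1, Mc2r, Mrap and Akr1b7) to 1163.23 and 900.01 TPM. The libraries stood apart in markers of neighbouring or circulating cells. Liver markers (Alb, Afp, Ahsg, Apoa1, Serpina1a and Ttr) summed to 161.09 TPM in replicate 1 and 4737.26 TPM in replicate 2. Erythroid markers (Hbb-bs, Hba-a1, Slc4a1 and Alas2) summed to 1698.52 and 3124.18 TPM, and skeletal muscle markers (Acta1, Mylpf, Myl1 and Tnnt3) to 505.00 and 942.59 TPM. Kidney markers (Slc34a1, Lrp2, Umod, Slc12a1 and Aqp2) summed to 7.13 TPM in replicate 1 and 2.83 TPM in replicate 2. No gene of these lists was at 0 in both libraries.

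Kcnk2 has the most annotated transcripts of the members, 10, and the sequences that tell its transcripts apart are given first. Its main annotated transcript in both kinds of table, Kcnk2-203, lacks an exon of 118 bases that is the third exon of Kcnk2-209, the longest protein-coding transcript sharing its first exon. That exon lies at chr1:189295594-189295711 (mm10, minus strand, within the coding region). Its length leaves a remainder of 1 base when divided by 3, so skipping it shifts the reading frame. The capitals in the exon and in the downstream junction mark the codons of the first potassium selectivity filter signature, which is split over the exon's end with 7 of its 15 bases in the exon and 8 in the next. The capitals in the other junctions mark the 15 bases downstream of the join.

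Kcnk2 skipped exon: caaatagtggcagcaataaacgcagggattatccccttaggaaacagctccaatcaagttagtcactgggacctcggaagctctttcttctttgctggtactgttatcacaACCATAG
Kcnk2 downstream junction: ttatcacaACCATAGGATTTGGAaacatct
Kcnk2 inclusion junction: gacgaactcatccagCAAATAGTGGCAGCA
Kcnk2 skipping junction: gacgaactcatccagGATTTGGAAACATCT

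The inclusion junction is in 6 annotated transcripts and the skipping junction in 1. Kcnk2-203 is annotated as subject to nonsense-mediated decay, the pathway that removes messages with an early stop. Its annotated coding region has 456 bases (152 codons), against 1266 bases (422 codons) in Kcnk2-209, which holds 2 such filter signatures. A splice variant of TREK-1 that lacks an exon and does not conduct on its own is known from brain. Whether it is the same variant as Kcnk2-203 was not examined.

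Transcripts of Kcnk2 start either at a distal first exon of 161 bases (chr1:189402113-189402273, mm10, minus strand), used by Kcnk2-203, Kcnk2-208 and Kcnk2-209, or at proximal sites 58.081 to 58.918 kb further downstream, used by Kcnk2-201, Kcnk2-202, Kcnk2-205 and Kcnk2-206. RefSeq promoter windows (GRCm38.p6, minus strand) are shown for the distal start and for the proximal start of Kcnk2-205. Each runs from 250 bases before to 50 bases after a start. Shares are reported below for the distal and the proximal starts as groups. The distal window lies at chr1:189402224-189402523 and the proximal window at chr1:189343658-189343957, and neither holds capitals.

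Kcnk2 distal promoter: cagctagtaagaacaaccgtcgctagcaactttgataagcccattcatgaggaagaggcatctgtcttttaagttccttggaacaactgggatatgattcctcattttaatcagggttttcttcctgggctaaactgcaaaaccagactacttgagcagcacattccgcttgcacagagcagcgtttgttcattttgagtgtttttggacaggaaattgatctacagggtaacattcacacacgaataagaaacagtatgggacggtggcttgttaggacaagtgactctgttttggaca
Kcnk2 proximal promoter: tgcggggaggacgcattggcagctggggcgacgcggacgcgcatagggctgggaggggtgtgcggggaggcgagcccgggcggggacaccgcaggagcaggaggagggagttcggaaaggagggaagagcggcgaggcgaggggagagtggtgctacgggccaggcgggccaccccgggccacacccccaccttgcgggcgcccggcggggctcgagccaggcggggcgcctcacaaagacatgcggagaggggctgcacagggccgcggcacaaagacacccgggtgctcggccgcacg

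The distal window had a GC content of 43% and 6 CpG dinucleotides, and the proximal window shown had 74.7% and 33. The windows at other proximal starts had 68.7% and 33 for Kcnk2-206, and 54.7% and 3 for Kcnk2-201. The proximal windows were therefore not all richer in CpG than the distal one. Over all 32851 promoter windows of the table the median GC content was 52.7%, the 5th to 95th percentile ran from 36.3% to 73.7%, and the median was 7 CpG. Of the members, Kcnk3, Kcnk6 and Kcnk9 had no promoter entry, so their promoters were not examined. The other 7 had 11 entries in all. None of the 11 held AAGGTCA (the half-site bound by the NR5A receptors that control steroid genes), TGACGTCA (the cyclic AMP response element) or TATAAA on either strand. Of all windows, 4.72%, 1.79% and 13.6% held these letters, in that order.

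The TASK channels led the family in the newborn gland, and Kcnk3 had the highest level of all potassium channel pore genes. Kcnk3 (ENSMUSG00000049265.7, chr5:30588170-30625271, plus strand) encodes TASK-1, which closes when the outside of the cell turns acid. Replicate 1 held it at 296.20 TPM and replicate 2 at 254.86 TPM, a mean of 276 ± 29.2 TPM (SD, n = 2), from 34485 and 27063 expected counts. That put it at rank 150 of 22028 protein-coding genes. Kcnk9 (ENSMUSG00000036760.7, chr15:72501089-72546340, minus strand) encodes TASK-3, which can pair with TASK-1, and is an imprinted gene in mouse brain. It had 22.43 and 21.30 TPM, a mean of 21.9 ± 0.799 TPM, from 9062 and 7759 counts, at rank 3801. Per unit of length, Kcnk3 was 13.2-fold above Kcnk9 in replicate 1 and 11.97-fold in replicate 2 (mean log2 ratio of TPM 3.65 ± 0.10, n = 2). By counts, not divided by length, the ratio was 3.81 and 3.49, as the only annotated Kcnk9 transcript is 12300 bases long and the main Kcnk3 transcript 3811 bases.

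The TREK and TRAAK channels respond to stretch, temperature and lipids, and of these only Kcnk2 passed a mean of 1 TPM, the detection level used here, in the gene tables. In the alignment-free tables Kcnk4 passed it as well. Kcnk2 (TREK-1, ENSMUSG00000037624.15, chr1:189207930-189402273, minus strand) stood at 11.05 TPM in replicate 1 and at 8.11 TPM in replicate 2, a mean of 9.58 ± 2.08 TPM, from 901 and 651 counts, at rank 7453. Kcnk10 (TREK-2, chr12:98429437-98578310, minus strand) had 0.29 and 0.48 TPM (0.385 ± 0.134), from 30 and 60 counts. Kcnk4 (TRAAK, opened by arachidonic acid and stretch, chr19:6923966-6934515, minus strand) had 0.05 TPM in each library, from 3 and 4 counts, which is at the limit of detection. The log2 ratio of Kcnk2 over Kcnk10 in TPM was 5.25 in replicate 1 and 4.08 in replicate 2.

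The other subfamilies were low. Kcnk5 (TASK-2, an alkali-activated channel of the TALK group known from the kidney, chr14:20140057-20181809, minus strand) had 2.50 and 2.05 TPM, from 273 and 202 counts. Kcnk6 (TWIK-2, known for potassium efflux in macrophages, chr7:29221926-29232515, minus strand) had 1.20 and 1.29 TPM, from 159 and 153 counts. These were the lowest of the 5 members detected. Kcnk1 (TWIK-1, chr8:125995170-126030685, plus strand), the founding member of the mammalian family, had 0.50 and 0.49 TPM, from 30 and 31 counts. Kcnk13 (THIK-1, the halothane-inhibited leak channel of microglia, chr12:99964499-100062682, plus strand) had 0.56 and 0.55 TPM, from 55 and 49 counts. Kcnk12 (THIK-2, chr17:87745801-87797994, minus strand), whose channel passes little current in cell lines, had 0.18 and 0.07 TPM, from 11 and 4 counts. The detected members were 5 of 10, beside 60.4% of all protein-coding genes at the same level.

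**Figure D1:**
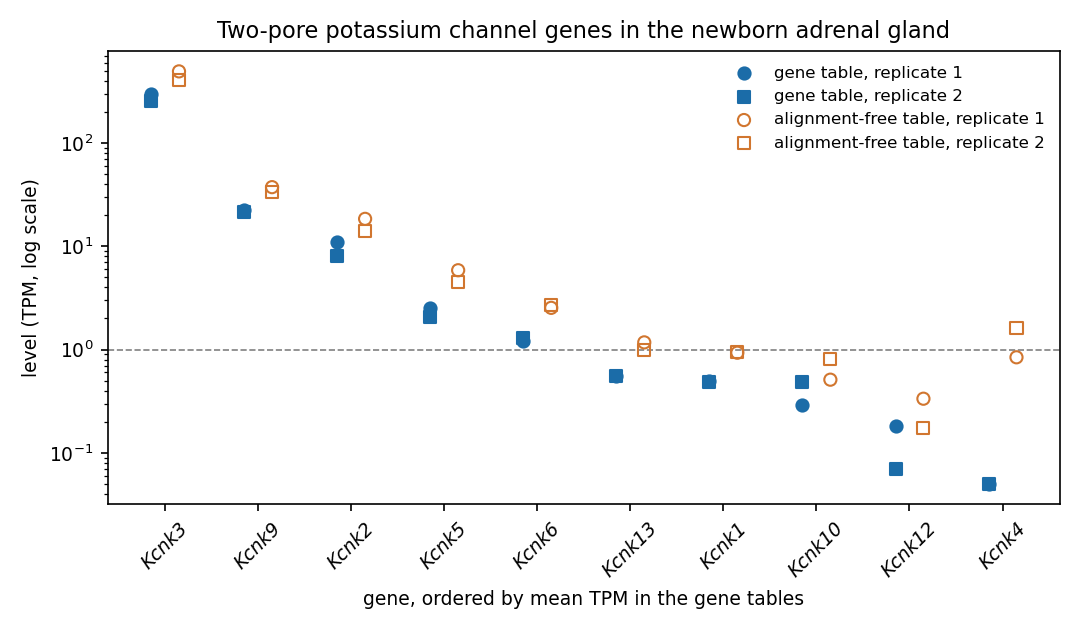
Level of each gene in TPM (vertical axis, log scale) in replicate 1 (circles) and replicate 2 (squares), with the gene tables filled and the alignment-free tables open, and the detection level of 1 TPM as a dashed line. Kcnk3 at 296.20 and 254.86 TPM stands above all others, the filled symbols fall in steps to Kcnk4, and the open symbols of Kcnk4 lie far above the filled ones.

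In the gene tables the order of levels was Kcnk3, Kcnk9, Kcnk2, Kcnk5, Kcnk6, Kcnk13, Kcnk1, Kcnk10, Kcnk12 and Kcnk4, and the ranges of the 2 libraries did not overlap between any neighbours. The mean TPM of Kcnk3 was 12.6 times that of Kcnk9, Kcnk9 was 2.28 times Kcnk2, and Kcnk2 was 4.21 times Kcnk5. With 95% exact Poisson intervals on the counts, Kcnk13 and Kcnk1, Kcnk1 and Kcnk10, Kcnk10 and Kcnk12, and Kcnk12 and Kcnk4 were not told apart in both libraries. Only neighbours in the order were compared in this way. Further apart, the intervals of Kcnk13 and Kcnk1 lay above those of Kcnk12 and Kcnk4, and those of Kcnk10 above those of Kcnk4, in both libraries.

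The family summed to 334.96 TPM in replicate 1 and 289.25 TPM in replicate 2. Kcnk3 took 88.4% and 88.1% of this sum (88.3% ± 0.225), Kcnk9 7.03% ± 0.472 and Kcnk2 3.05% ± 0.350 (SD, n = 2). By subfamily the sums were 297 ± 30.03 TPM for TASK (Kcnk3 and Kcnk9), 10.015 ± 1.94 TPM for TREK and TRAAK (Kcnk2, Kcnk10 and Kcnk4), 2.275 ± 0.318 TPM for TALK (Kcnk5), 1.74 ± 0.0566 TPM for TWIK (Kcnk1 and Kcnk6) and 0.68 ± 0.0849 TPM for THIK (Kcnk12 and Kcnk13). As Kcnk3 makes up most of this sum, its share can move little when its level does. By counts, where long transcripts weigh more, Kcnk3 took 75.9% ± 0.984 and Kcnk9 20.9% ± 1.01 of the family. The remaining family genes of the annotation, Kcnk7, Kcnk15, Kcnk16 and Kcnk18, summed to 0.03 and 0.09 TPM, 0 of 4 were detected, and Kcnk15 and Kcnk18 had 0 counts in both libraries. The highest of them were Kcnk7 with 1 count in each library and Kcnk16 with 0 counts in replicate 1 and 3 in replicate 2.

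Among all 77 potassium channel pore genes of the annotation, 14 of them two-pore, Kcnk3 had the highest level, Kcnk9 the third and Kcnk2 the sixth. Kcnk3 alone made up 64.2% of the summed pore gene TPM in replicate 1 and 59.2% in replicate 2 (61.7% ± 3.57), Kcnk9 4.90% ± 0.0585 and Kcnk2 2.14% ± 0.363. Messenger levels say nothing of channel number or current. The highest pore genes outside the family were Kcnn2, a small-conductance calcium-activated channel, with 24.99 and 27.12 TPM, and Kcnma1, the large-conductance calcium-activated channel, with 17.95 and 20.33 TPM. The values of Kcnk9, 22.43 and 21.30 TPM, lay between them in both libraries without overlap. Of the 63 other pore genes 24 were detected (38.1%), with a median of 0.675 TPM.

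**Figure D2:**
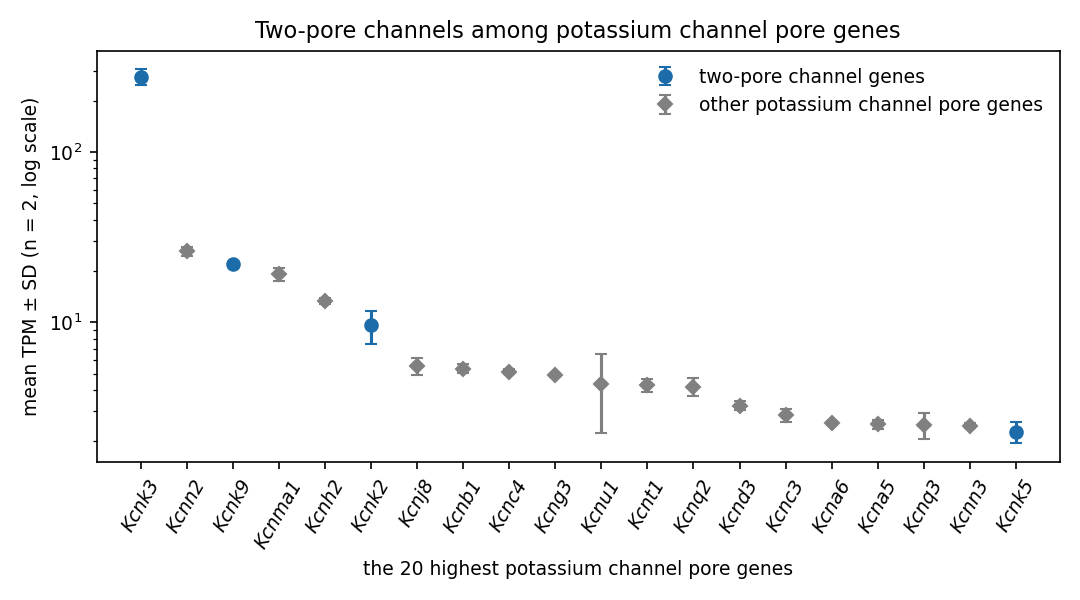
Mean TPM with SD over 2 libraries (vertical axis, log scale) of the 20 highest potassium channel pore genes, with two-pore genes as circles and others as diamonds. Kcnk3 at 276 TPM lies far above Kcnn2 at 26.1 TPM, and Kcnk9, Kcnk2 and Kcnk5 are at places 3, 6 and 20.

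Other genes were read from lists on glomerulosa membrane potential and aldosterone control, and on channel partners and trafficking. Whole-gland levels do not tell which cells held these messages or those of the channels. Of the first list 17 of 18 were detected, with a median of 23.5 TPM, led by Star, which moves cholesterol into mitochondria for steroid synthesis, with 863.67 and 790.36 TPM. The undetected gene was Kcnj5, an inward rectifier mutated in human aldosterone-producing adenomas, with 0.12 TPM in each library. Of the partner list 15 of 16 were detected, with a median of 61.6 TPM. It was led by Ywhae, with 225.77 and 229.51 TPM, and Ywhaz, with 163.82 and 163.36 TPM, members of the 14-3-3 family that binds the tails of TASK-1 and TASK-3 and promotes their transport to the cell surface. Kcnk3 was above both of these partners in each library.

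Transcript shares were read from the deposited transcript tables, which assign reads among 35 annotated transcripts of the members. Kcnk9 and Kcnk12 have 1 transcript each. The main transcript was the same in both kinds of table for 8 of 10 members, and in both libraries of the alignment-based tables for 7. Kcnk3-201 took 94.7% ± 0.869 of the Kcnk3 TPM in the alignment-based tables and 100% in the alignment-free ones. The rest was Kcnk3-202, a processed transcript of 507 bases, with 17.62 TPM in replicate 1 and 12.03 TPM in replicate 2 from 238.03 and 146.59 counts, and 0 TPM in the alignment-free tables. By counts Kcnk3-201 held 99.3% and 99.5% of the gene.

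For Kcnk2, Kcnk2-203 was estimated at 6.63 TPM in replicate 1 and at 4.95 TPM in replicate 2, from 665.49 and 448.35 expected counts. The deposited TPM intervals of Kcnk2-203 ran from 5.65 to 7.09 in replicate 1 and from 3.91 to 5.46 in replicate 2. This transcript, which carries the skipping junction shown above, took 60% and 61.1% of the gene's TPM in the alignment-based tables (60.6% ± 0.786) and 38.8% and 47.2% in the alignment-free ones (43.0% ± 5.96). It was the highest Kcnk2 transcript in each of these 4 tables. The 6 transcripts with the inclusion junction together took 37.8% ± 1.52 in the alignment-based tables and 57.0% ± 5.96 in the alignment-free ones, so the tables put skipping and inclusion in opposite order. Transcripts with the distal first exon took 76.7% and 62.8% of the TPM (69.7% ± 9.77), against 55.3% ± 5.97 in the alignment-free tables. Those with proximal starts took 28.6% ± 12.1 and 44.7% ± 5.97.

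The individual inclusion transcripts were assigned less evenly. Kcnk2-209 held 77.48 counts in replicate 1 and 5.29 in replicate 2 (16.7% and 1.73% of the gene's TPM), while the alignment-free tables gave it 12.3% in both libraries. Its deposited TPM intervals, 0.292 to 2.52 in replicate 1 and 6.15e-05 to 0.930 in replicate 2, overlapped. Kcnk2-206, the longest coding form, took 7.51% and 19.6%, against 20.96% and 20.3% in the alignment-free tables. Kcnk2-203 is the only annotated transcript without the exon. Of the 3 with a last exon of 2171 to 2178 bases (Kcnk2-201, Kcnk2-202 and Kcnk2-203), it is also the only one with the distal first exon. Of its 3101 words of 31 bases 83 (2.68%) occur in no other transcript of the gene, 55 of them in the first exon, and Kcnk2-209 has 0 such words among 1343. Reads in the shared last exon can therefore add to the share of Kcnk2-203 without crossing the skipping junction, and how many did was not tested.

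**Figure D3:**
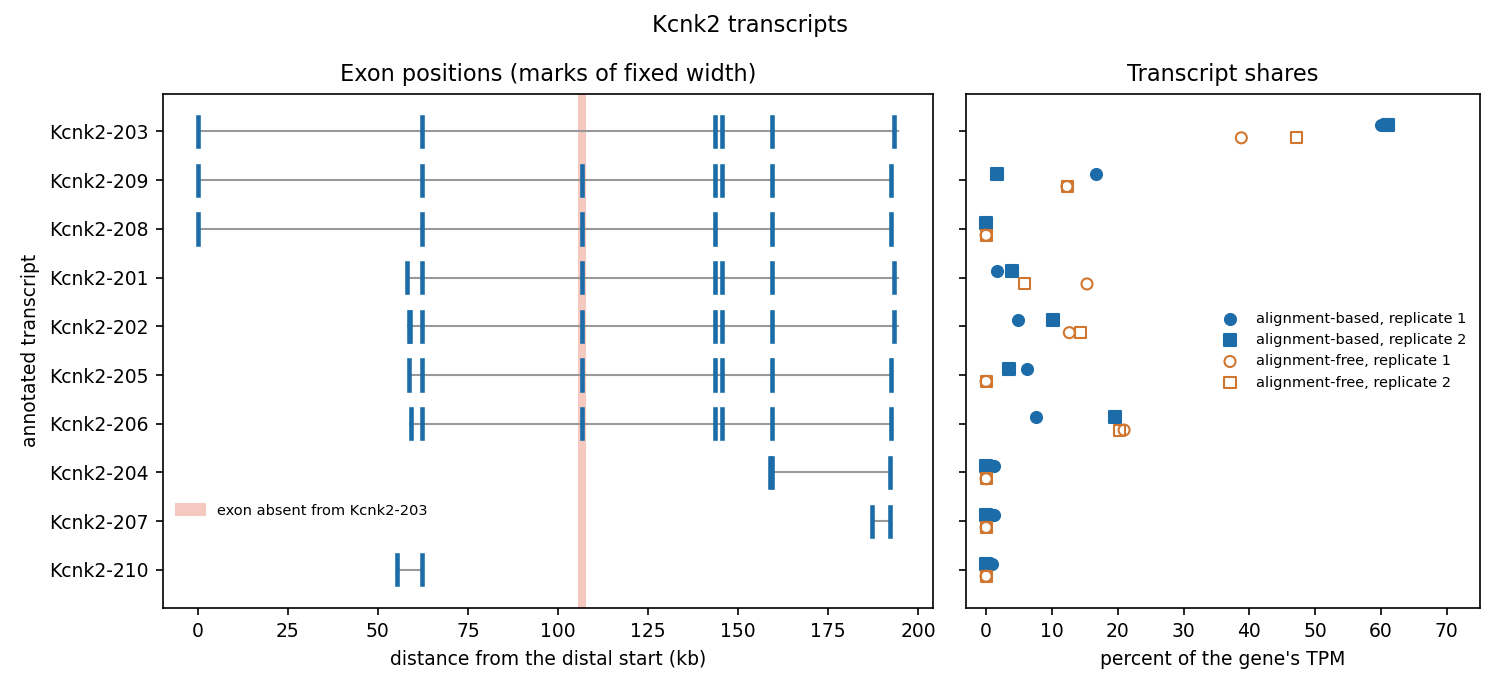
Left, exon positions of the 10 annotated Kcnk2 transcripts as marks of fixed width along the distance from the distal start in kb, with the exon that Kcnk2-203 lacks shaded. Right, each transcript's percent of the gene's TPM in the alignment-based tables (filled) and alignment-free tables (open), where Kcnk2-203 is highest in every table at 60% and 61.1%, against 38.8% and 47.2%.

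The other members with several transcripts rested on few counts. Kcnk10 was led by Kcnk10-203, a short coding form of 241 codons, by mean TPM share in the alignment-based tables (51.5% ± 5.13). In replicate 1 it had 0.16 TPM, against 0.08 TPM for Kcnk10-202, the form with 535 codons, and in replicate 2 both had 0.23 TPM. Kcnk10-202 led in the alignment-free tables (44.7% ± 4.02). Kcnk10-202 held 18.88 counts in replicate 1 and 49.76 in replicate 2, most of the gene's counts in each library. For Kcnk13 the alignment-based tables gave all counts to Kcnk13-202 in replicate 1, and 17.93 counts to it and 31.07 to Kcnk13-204 in replicate 2. The deposited TPM intervals of Kcnk13-202 and Kcnk13-204 overlapped in each library, and all started at 4.91e-05 or lower. Their upper bounds were 0.477 and 0.464 in replicate 1, and 0.492 and 0.430 in replicate 2. The estimate of Kcnk13-202 in replicate 1, 0.56 TPM, lay above its upper bound, so a deposited interval need not hold its TPM value. Kcnk13-202 and Kcnk13-204 both have coding regions of 405 codons, and the alignment-free tables gave Kcnk13-202 99.8% ± 0.0814. Kcnk1-201 took 83.0% ± 24.0 of the Kcnk1 TPM, and 95.1% ± 6.91 in the alignment-free tables. Kcnk6-201 took 100% in each kind of table. Kcnk5-201 took 100% in the alignment-based tables and 72.7% ± 0.499 in the alignment-free ones, where Kcnk5-202, a processed transcript of 654 bases, held the rest from 11.3 and 8.58 counts.

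Gene levels in the alignment-based tables were lower than in the alignment-free ones for each of the 10 members. The median log2 ratio of alignment-based over alignment-free TPM was -0.87 in replicate 1 and -0.89 in replicate 2 over the members, beside -0.93 and -0.86 over detected protein-coding genes. Over 2-fold in both libraries were Kcnk4, Kcnk5 and Kcnk6, 3 of 10, beside 34.9% of all genes above 0 in either table. Kcnk5 had log2 ratios of -1.23 and -1.13 and Kcnk6 of -1.07 and -1.05, close to the general shift. Kcnk4 had -3.83 and -4.77. In the alignment-free tables it stood at 0.842 TPM in replicate 1 and at 1.63 TPM in replicate 2, of which Kcnk4-205, a transcript of 600 bases, took 0.727 and 1.52 TPM from 4.353 and 8.798 estimated counts. The alignment-based tables gave Kcnk4-205 0 counts.

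The members were then compared between the libraries. Each gene's counts were compared with an exact binomial test against library sizes set by the trimmed mean of M values (TMM), adjusted by Benjamini-Hochberg over the 18160 genes that passed a filter on low counts. It compares these 2 libraries and no conditions, its p-values treat reads as independent and cover counting error only, and a call needed an adjusted p under 0.05 and over 2-fold. Over all genes the libraries had a common coefficient of variation of 0.233 in edgeR beyond counting error, which these p-values leave out. Of the members 8 were tested, and Kcnk12 and Kcnk4 fell under the filter. Past the adjusted p alone were 5 of 8, 4 of them lower and 1 higher in replicate 2, beside 33.5% of all genes (17.6% lower and 15.9% higher). Past both limits was 1 of 8, higher in replicate 2, beside 3.98% of all genes (3.38% higher and 0.606% lower). The members' median log2 ratio of replicate 2 over replicate 1 was -0.14 and their median absolute log2 ratio 0.23, beside 0.0002 and 0.17 over all genes tested.

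The called member was Kcnk10, with 60 counts in replicate 2 and 30 in replicate 1, a log2 ratio of 1.05 (95% exact interval 0.40 to 1.74, adjusted p = 0.00476 by the exact binomial test). With alignment-free counts its log2 ratio was 0.81, under the 2-fold limit. Kcnk3 had a log2 ratio of -0.29 (interval -0.31 to -0.27, adjusted p = 1.6e-134 by the exact binomial test). For Kcnk2 it was -0.41 (-0.56 to -0.26, adjusted p = 3.46e-07 by that exact test). Both differences are well under 2-fold, and the counts of Kcnk3 make its interval the narrowest of the 8. Kcnk9 had -0.16 (-0.21 to -0.12, adjusted p = 2.64e-12 by the exact test) and Kcnk5 -0.37 (-0.65 to -0.11, adjusted p = 0.0198 by the exact test). Kcnk6, Kcnk13 and Kcnk1 did not pass, with intervals of -0.33 to 0.33, -0.69 to 0.47 and -0.67 to 0.88.

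**Figure D4:**
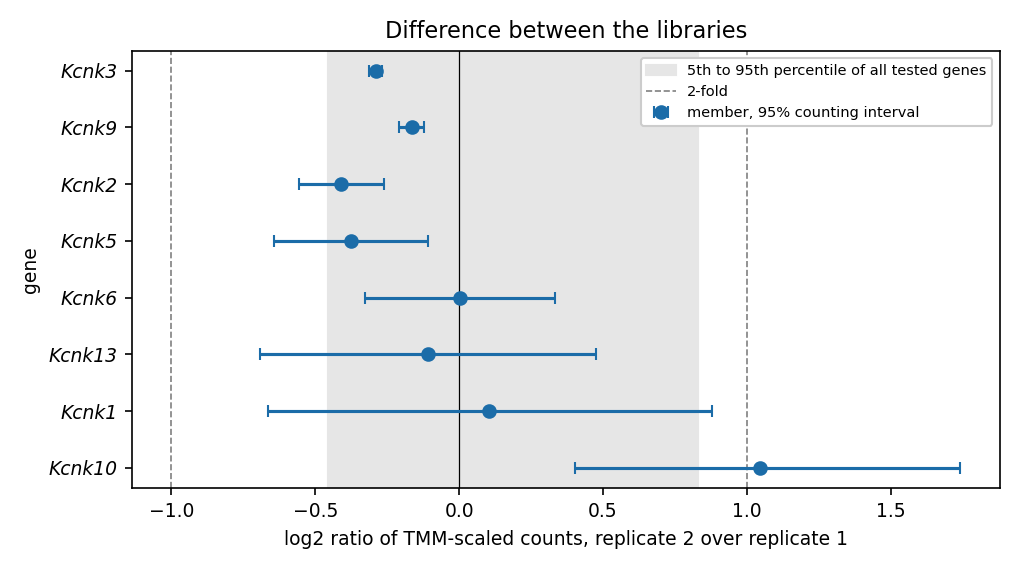
Log2 ratio of TMM-scaled counts in replicate 2 over replicate 1 (horizontal axis) for the 8 tested members, with bars for the 95% exact counting interval, grey for the 5th to 95th percentile of all tested genes (-0.45 to 0.83) and dashed lines at 2-fold. Kcnk3, Kcnk9, Kcnk2 and Kcnk5 lie below 0 within the grey range, and Kcnk10 at 1.05 lies beyond it.

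Markers of the zona glomerulosa, zona fasciculata and chromaffin cells were lower in replicate 2, as were Kcnk3, Kcnk9, Kcnk2 and Kcnk5, by the exact test's adjusted p. All 5 zona glomerulosa markers (Cyp11b2, Agtr1a, Dab2, Hsd3b6 and Vsnl1) fell, with sums of 320.91 TPM in replicate 2 and 413.04 TPM in replicate 1 and a median log2 ratio of -0.30. So did all 4 zona fasciculata markers (median -0.36) and all 5 chromaffin markers (median -0.25). In bulk tissue, fewer cells of a type and less RNA per cell cannot be told apart. The part of RNA from other tissues in these falls was not tested. In the aldosterone control list, which shares Cyp11b2 and Agtr1a with the glomerulosa markers, 10 of 18 fell and 2 rose, with a median of -0.15. Only Cyp11b2, the aldosterone synthase, passed 2-fold there, with 70.36 TPM in replicate 2, against 144.26 TPM in replicate 1 (log2 ratio -1.13). In the partner list 7 of 16 fell and 2 rose, with a median of -0.07, and 0 passed 2-fold. Over all genes tested, 17.6% fell and 15.9% rose by the same adjusted p.

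Marker lists of other cell types and tissues differed in direction and size. All 6 liver markers rose in replicate 2 past 2-fold (median log2 ratio 4.71), led by Alb, with 2319.08 TPM in replicate 2 and 76.26 TPM in replicate 1, and Ahsg, with 974.48 and 30.34 TPM. All 4 skeletal muscle markers (median 0.79) and all 4 erythroid markers (median 0.79) rose, and Slc4a1, the red cell anion exchanger, passed 2-fold at 1.04. Of the stroma list (Col1a1, Col1a2, Pdgfra and Dcn) 3 of 4 rose (median 0.31), with sums of 806.05 TPM in replicate 2 and 545.79 TPM in replicate 1. Of the endothelium list (Cdh5, Pecam1, Kdr and Tek) 2 rose and 1 fell (0.10), and of the macrophage list (C1qa, C1qb, C1qc, Csf1r and Adgre1) 1 of 5 rose (0.05). Of the kidney list 4 were tested and all 4, Slc34a1, Lrp2, Slc12a1 and Aqp2, fell past 2-fold (median -1.57). The part of these differences in the members' ratios was not tested.

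Several members share their locus with other annotated genes, and strand use in counting was not given in the sources used here. Values of genes that overlap on opposite strands are therefore uncertain, and reads shared between genes on the same strand were not examined. Gm9899 overlaps Kcnk3 on the opposite strand and had 630 counts in replicate 1 and 649 in replicate 2 (5.22 ± 0.658 TPM), small beside the 34485 and 27063 counts of Kcnk3. Within Kcnk2, between its annotated exons, lies the processed pseudogene Pdcd5-ps on the same strand, with 87.66 and 61.44 counts (8.35 ± 1.48 TPM, against 9.58 TPM for Kcnk2 itself). Also within Kcnk2, 2900042K21Rik on the same strand and A430027H14Rik on the opposite strand had 4 counts in replicate 1 and 6 in replicate 2 each. Catsperz overlaps Kcnk4 on the same strand with 6 and 5.29 counts, more than the 3 and 4 counts of Kcnk4. The overlapping genes Gm24092 (Kcnk2), Gm45875 (Kcnk1), Gm40893 and 5330409N07Rik (Kcnk10) and Gm23291 (Kcnk13) had 0 counts in both libraries.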

How the data were processed

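Libraries were made with a directional kit, ERCC spike-ins and 300 ng of input, per the labels' protocols. The labels number different males, but 1 description repeats a number and the donor label is shared. The authors deposited expected counts, TPM and other columns (bounds of TPM intervals) from a transcriptome alignment per gene and transcript, and estimated counts and TPM per transcript from an alignment-free method, on mm10 with GENCODE M21, as the deposited descriptions state. Programs and versions were not given in the sources used here.

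TPM depends on all RNAs counted in the library (protein-coding genes took 36.6% and 39.2% of TPM), and deposited TPM were used unchanged. Alignment-free values were summed per gene. Spike-ins (1.06% of counts) and 26248 number rows (3 and 2 counts) were left out. Counts were rounded. TMM sizes and filterByExpr came from edgeR 4.0.16 (R 4.3.3). The binomial test was tested on simulated counts with counting error only, which cannot show its error rate under the spread between these libraries. Log2 ratios carry a prior count of 0.5, table ratios a pseudocount of 0.01 TPM. Intervals on ratios are Clopper-Pearson. Alternatives included DESeq2 1.42.0 size factors. Named were all members, from each list the 2 genes of highest TPM and any past the call rule, the 2 highest other pore genes and genes overlapping members. Kcnj5, Kcnk7, Kcnk15, Kcnk16, Kcnk18 and list members given to define a list were named outside that rule. Some genes of these lists, and 1 marker list, are not reported here. Members and lists were chosen with earlier results of these data known.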

Additional observations from a re-analysis of the deposited data

How the results depend on the processing

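No paired analysis was possible because the series has 1 group. The order of levels placed 10 members as reported with either library alone, and 5 kept their place in the alignment-free tables. By mean TPM there, Kcnk4 stood between Kcnk6 and Kcnk13, and the order of the other members among themselves was unchanged. The members detected numbered 5 with either library alone, 6 at a level of 0.5 TPM, 3 at 5 TPM, 7 in the alignment-free tables, where Kcnk4 and Kcnk13 passed as well, and 8 with TPM computed over protein-coding genes, where the total is smaller by construction. The Kcnk3 share of the family ran from 88.1% to 88.4% over the single libraries, was 87.6% in the alignment-free tables and 75.9% of expected counts, which are not divided by length. The members called between the libraries numbered 0 with alignment-free counts and 5 with no fold limit, while DESeq2 size factors, total counts, spike-in counts, no low-count filter and a prior count of 2 each gave 1. Single libraries gave 8 and 9 members with the same main transcript, and 4 and 4 members over 2-fold between the tables. Kcnk6 had a log2 ratio of -0.011 with no low-count filter, the opposite sign to its value near 0 in the test reported. Members at 60 counts or fewer (Kcnk1, Kcnk4, Kcnk10, Kcnk12 and Kcnk13) are limited by depth.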
